A study of Mus musculus with 8 samples.

Results

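The data described here are the cytokine response of pancreatic islets from mice in which, per the labels, NFATc2 was deleted in insulin-expressing cells: 4 of the 8 libraries in the series, chosen by their titles as the knockout islets with the cytokine cocktail and the knockout islets left untreated, 2 libraries on each side. The mice carry the genotype the labels call NFATc2βKO on the strain Agouti/C57BL6, in which tamoxifen given to adults removes NFATc2 from cells that express INS-1. Islets of 2 such mice were kept overnight at 5.5 mM glucose and then either left untreated for 2 h or exposed for 2 h to a mixture of 3 cytokines in 11 mM glucose. The mixture held IFNγ (50 ng/mL), TNFα (10 ng/mL) and IL1β (5 ng/mL). The remaining 4 libraries are the same 2 treatments in islets of 2 wild-type mice, which received tamoxifen with no knockout resulting, and they serve as the comparison. The authors' tables name that second genotype Mut, a name absent from the labels; here it stands for wild type, the genotype left over. Glucose was raised in the cytokine arm only, so effects of glucose and of the cytokines cannot be told apart. Cells of an islet that do not express insulin, such as alpha, delta, PP, endothelial and immune cells, should keep the gene in this design, and the driver of the recombinase, the deleted exons and exact ages are not given in the sources used here.

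The authors deposited comparison tables over 16333 genes with means of size-factor-normalized read counts per group, and the whole reads of each library were recovered from those means for 16317 genes (99.902%). Assigned reads came to between 15325324 and 26861854 in the 4 knockout libraries and between 14562368 and 23632125 in the wild-type libraries. Y-linked reads showed 1 male and 1 female library in every group, and since islets of each mouse received both treatments, libraries of the same sex and genotype were joined as those of 1 mouse. They are called the male and the female mouse here, because the recovered values cannot be tied to the numbers in the titles. In the female knockout library with cytokines 37 Y-linked reads were counted, at 0.53% of the male level, against 0 in the untreated female library. Pdx1, a transcription factor that marks beta cells, lay at 4354 to 4517.4 normalized counts in all 4 knockout libraries, and Ins2, an insulin gene, had group means of 994390 untreated and 1009400 with cytokines in the authors' deposited table. Nfatc2 itself (chr2:168476410-168601657, minus strand, GRCm38), counted over the whole gene, stood at 842.1 and 1167 normalized counts untreated and at 899.2 and 987 with cytokines in the male and female knockout mice. In wild-type islets it stood at 1269.9 and 1556.7 untreated and at 1143.9 and 1646.4 with cytokines, so within each treatment both knockout libraries lay below both wild-type libraries. The group means were 1004.6 in knockout against 1413.3 in wild-type islets untreated, and 943.1 against 1395.1 with cytokines. The authors deposited tests of knockout against wild type within each treatment, and their results are not reported here. A count over the whole gene does not show a deletion of some of its exons or its loss in beta cells alone. Cytokines gave a log2 fold change of -0.09 ± 0.26 (SE) for it in knockout islets in the authors' deposited table.

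IL1β and TNFα act on receptors whose adaptors switch on the IκB kinases. These mark IκBα for destruction and free NF-κB dimers, which enter the nucleus and bind sites beside inflammatory genes and beside the genes of their own inhibitors. IFNγ acts through the kinases JAK1 and JAK2 and induces Irf1, chemokines and antigen presentation. In islets the cocktail is widely used as a model of the inflammation that damages beta cells in type 1 diabetes, and NFATc2 belongs to a family of transcription factors that calcineurin, a calcium-dependent phosphatase, sends to the nucleus.

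By the authors' deposited table, 7 genes passed an FDR of 0.05 for cytokines against untreated in knockout islets (0.0429% of the 16333), 6 of them higher (0.0367%) and 1 lower (0.00612%). The 6 that rose are Cxcl10, a chemokine, Nfkbia and Birc3 of the NF-κB pathway, the linker histone genes Hist1h1d and Hist1h1e, and Mt1, a metallothionein. Ppy, which encodes the hormone pancreatic polypeptide, fell. A limma fit of the recovered values with the mouse as a block, over all 4 groups and with 2 residual degrees of freedom, called 20 genes at an adjusted p of 0.05 (0.123% of 16317), 18 higher (0.11%) and 2 lower (0.0123%), and all 7 are among them. The genes called only with the block are Relb, Tnfaip3, Mt2, Odc1, Slc16a6, Xpo1, H3f3b, Hist1h1c, H1f0, mt-Rnr1, mt-Rnr2, Rnu12 and, lower, Abhd15. Without the block the same fit called 0 genes, with 300 at an unadjusted p under 0.05, and without the male knockout mouse it called 2, neither of them among these 20, while without the female knockout mouse it called 27, with 5 of the 20 among them. In the paragraphs that follow, "rose" and "fell" are used for genes past either of the first 2 tests. A fit of the knockout libraries alone, with the block and 1 residual degree of freedom, called 350 genes (2.15%), 264 higher (1.62%) and 86 lower (0.527%), and its calls are given as higher or lower and named as coming from it.

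Promoters of some called genes are shown with their matches to the motifs named below. Each is the 150 bases before the RefSeq start on GRCm38.p6, on the gene's own strand, 5′ to 3′. For the inhibitor genes Nfkbia (chr12:55492648-55492797, minus strand) and Tnfaip3 (chr10:19015411-19015560, minus strand) and for Cxcl10 (chr5:92348890-92349039, minus strand), capitals mark matches to GGNNNTTCC, a short form of the NF-κB site, on either strand.
Nfkbia: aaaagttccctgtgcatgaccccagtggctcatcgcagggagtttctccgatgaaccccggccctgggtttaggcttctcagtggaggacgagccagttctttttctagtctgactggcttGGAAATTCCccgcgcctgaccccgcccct
Tnfaip3: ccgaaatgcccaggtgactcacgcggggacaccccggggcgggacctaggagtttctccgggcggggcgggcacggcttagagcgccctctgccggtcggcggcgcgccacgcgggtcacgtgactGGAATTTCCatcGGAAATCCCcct
Cxcl10: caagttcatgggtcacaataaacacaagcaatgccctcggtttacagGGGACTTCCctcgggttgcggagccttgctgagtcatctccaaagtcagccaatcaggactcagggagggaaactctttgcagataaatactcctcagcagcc
For the linker histone genes Hist1h1d (chr13:23554882-23555031, plus strand), Hist1h1e (chr13:23622559-23622708, minus strand) and Hist1h1c (chr13:23738657-23738806, plus strand), capitals mark AAACACA, the H1 box found in many linker histone promoters.
Hist1h1d: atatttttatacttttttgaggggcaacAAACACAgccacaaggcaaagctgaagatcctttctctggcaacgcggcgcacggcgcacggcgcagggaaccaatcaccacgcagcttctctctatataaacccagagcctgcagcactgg
Hist1h1e: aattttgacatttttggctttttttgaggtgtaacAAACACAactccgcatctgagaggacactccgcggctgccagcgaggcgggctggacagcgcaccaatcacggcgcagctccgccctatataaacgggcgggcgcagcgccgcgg
Hist1h1c: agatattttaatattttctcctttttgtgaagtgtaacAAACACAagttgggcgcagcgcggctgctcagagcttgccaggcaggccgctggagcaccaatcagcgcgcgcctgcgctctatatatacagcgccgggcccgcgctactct

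Of the 20 genes called with the block, 15 had a promoter in the RefSeq table. Within 250 bases before the start and on both strands, GGNNNTTCC was found in 4 of the 15 (Nfkbia, Tnfaip3, Cxcl10 and Xpo1), against 17.6% of 27025 genes. AAACACA was found in 4 of the 15 (Hist1h1c, Hist1h1d, Hist1h1e and Cxcl10), against 7.2% of genes, and in 4 of the 7 measured linker histone genes, Hist1h1b being the fourth. Of the other motifs searched in the same 15 promoters, TGCACNC or TGCGCNC, the core of the metal response element of metallothionein genes, was found in 7, Mt1 and Mt2 among them, against 23.8% of genes. GAAANNGAA, a short form of the interferon-stimulated response element, was found in 2 (Nfkbia and Cxcl10) against 8.18%, and TTCNNNGAA, the gamma-activated site, in 1 (Hist1h1e) against 8.13%. CCAAT was found in 7 against 37.5%, and TGANTCA, the AP-1 site, in 3 against 7.82%. A match is a run of letters and not a measured site.

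Of 19 genes for inhibitors and feedback regulators of NF-κB, Nfkbia and Tnfaip3 rose, and so did Birc3 among the targets. Nfkbia (chr12:55489410-55492647), which encodes IκBα, the inhibitor that holds NF-κB in the cytoplasm, stood at 454 and 533.2 normalized counts untreated in the male and female knockout mice and at 1029.9 and 895.7 with cytokines. Both cytokine libraries lay above both untreated libraries. The log2 fold change was 0.96 ± 0.18 (SE) in the authors' deposited table, with an FDR of 0.00077, and the adjusted p was 0.013 with the block. Tnfaip3, which encodes A20, an enzyme that removes ubiquitin from signalling complexes of the TNF receptor, went from 125.7 and 136.2 to 335.4 and 284.2 normalized counts. Its groups did not overlap either, at a log2 fold change of 1.22 ± 0.34 (SE) in the authors' deposited table, where its FDR was 0.34, and an adjusted p of 0.016 with the block. Birc3 (chr9:7848699-7873186), a ubiquitin ligase of the same complexes, rose from 418.5 and 401.5 to 832.9 and 663.5 normalized counts, a log2 fold change of 0.86 ± 0.18 (SE) in the authors' deposited table, with an FDR of 0.0034.

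Among the 11 measured genes for NF-κB subunits and IκB kinases, Relb, a subunit of the slower alternative branch, rose from 143.4 and 178.9 to 355.8 and 366.6 normalized counts. This is a log2 fold change of 1.16 ± 0.31 (SE) in the authors' deposited table (FDR 0.22), with an adjusted p of 0.012 with the block. Nfkb2, its partner subunit, stood at 343.1 and 350.7 untreated and at 594.4 and 560.7 with cytokines, and Rel at 327.5 and 304.4 untreated and at 573.1 and 430.1 with cytokines. Both groups were apart for each gene, and both genes were higher in the fit of knockout libraries alone, with adjusted p-values of 0.0019 and 0.011. The unweighted block over all 4 groups did not call them, with adjusted p-values of 0.081 and 0.089. With voom weights and the block over 4 groups, a fit added after the data were seen, both were called (0.028 and 0.033). Nfkb1 was the fourth of these 11 genes that the knockout-only fit called higher, against 1.62% of all genes. Rela, the main transactivating subunit, stood at 685.4 and 727.3 against 753.1 and 799.2, a log2 fold change of 0.14 ± 0.23 (SE) in the authors' deposited table. The kinase genes Ikbkb and Chuk and the kinase scaffold gene Ikbkg had log2 fold changes of -0.02 ± 0.12, -0.05 ± 0.18 and 0.00 ± 0.12 (SE) there, and 0 of the 3 were called by the authors, with the block or in the knockout-only fit.

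Upstream of the kinases, 0 of 27 genes for IL1 and TNF receptors and adaptors were called by the authors, with the block or in the knockout-only fit, and 1 had an unadjusted p under 0.05 in the authors' deposited table. Their median log2 fold change was 0.07, beside 0.00 over all 16333 genes. Il1r1, the receptor for IL1β, stood at 9284.8 and 10405 normalized counts untreated and at 10044 and 10620 with cytokines. Of 19 feedback genes 15 had a positive log2 fold change, against 50.3% of all genes. The knockout-only fit called 5 of them higher, against 1.62% of all genes: Nfkbia, Tnfaip3, Tifa, Nfkbie and Bcl3. Nfkbie, the gene of IκBε, went from 122 and 95.2 to 185.9 and 172.5 normalized counts, and Bcl3, a nuclear IκB protein, from 403.7 and 337.4 to 549.4 and 502.4. Nfkbiz, another nuclear IκB protein, was at 1021.8 and 980.1 and then at 1164.1 and 1154.5, which these fits did not call. Among 35 further NF-κB and inflammatory targets 29 were positive with a median of 0.11, Birc3 was the only one called with the block, and the knockout-only fit added Cd83 and C3. C3, the central complement component, stood at 1041 and 1127.9 untreated and at 1656.6 and 1738.1 with cytokines. Sod2, the mitochondrial superoxide dismutase, was at 2008.1 and 1938.8 and at 2043.7 and 1941 (log2 fold change 0.01 ± 0.12, SE, in the authors' deposited table). Nos2, the inducible nitric oxide synthase, was looked up by name and not found among the 16333 genes, so it was not analysed here.

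**Figure D1:**
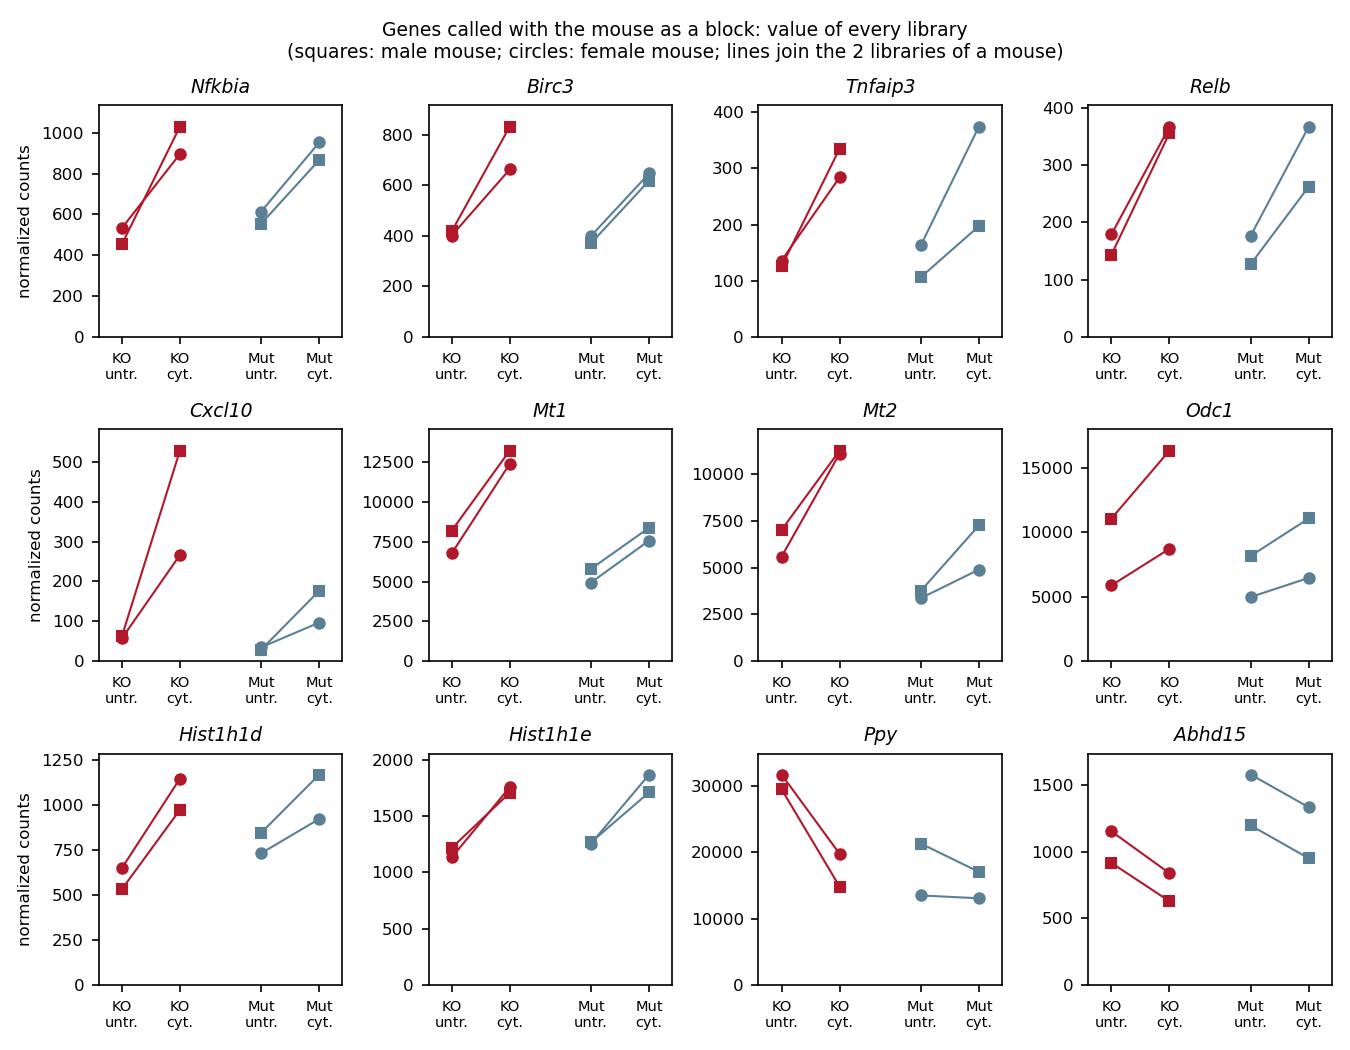
Normalized counts (linear axes from 0) of 12 genes called with the mouse as a block, in each library; squares are male and circles female mice, lines join the untreated and the cytokine library of a mouse, red is knockout and blue is the wild-type group that the tables call Mut. Nfkbia climbs from 454 and 533.2 to 1029.9 and 895.7 in knockout islets, Ppy drops from 29544 and 31760 to 14842 and 19795, and for Odc1 both mice move in parallel from different starting levels.

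Cxcl10 had the largest log2 fold change of the 20 genes called with the block, and 14 of 15 measured chemokine genes were positive. Cxcl10 (chr5:92346638-92348889), a ligand that draws T cells through the receptor CXCR3, rose from 62.1 and 57 normalized counts to 529 and 266.4. The log2 fold change was 2.72 ± 0.48 (SE) in the authors' deposited table, which is a 6.6-fold change, with an FDR of 0.00015. The adjusted p was 0.016 with the block. The cytokine library of the male mouse was the higher of both, so the size of the change differed between the mice while its direction did not. Cxcl11, a neighbouring gene of the same family that the annotation classes as a polymorphic pseudogene, was at 31.8 and 16 untreated and at 114.6 and 64.7 with cytokines. Cxcl1, which draws neutrophils, was at 5.2 and 7.1 and then at 28 and 26.6, and Ccl2, which draws monocytes, at 21.4 and 22.3 and then at 55.2 and 58.4. The knockout-only fit called these 3 and Cxcl16 and Cxcl12 higher besides Cxcl10, 6 of 15 measured chemokine genes, against 1.62% of all genes. The unweighted block over 4 groups called only Cxcl10, and voom weights over 4 groups called Cxcl11 as well (adjusted p 0.020). The median log2 fold change of the 15 was 0.62. Libraries did not overlap and were higher with cytokines for 9 of the 15, beside 15.3% of all genes, with 14.6% of all genes not overlapping and lower.

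Of the 26 listed interferon signalling genes and the 59 listed interferon-stimulated and antigen-presentation genes, 0 were called by the authors or with the block. Cxcl10, called by both, was listed with the chemokines, which IFNγ also induces. Irf1, a transcription factor induced by IFNγ, stood at 893.9 and 1022.8 normalized counts untreated and at 1099.6 and 1220.4 with cytokines, and Socs3, a feedback inhibitor of JAK kinases, at 475.4 and 512.7 and at 652.1 and 690.1. Untreated and cytokine libraries were apart for both genes. The log2 fold changes were 0.27 ± 0.21 and 0.44 ± 0.34 (SE) in the authors' deposited table, each with an FDR of 1.0, and the knockout-only fit called both and Irf2 higher. With the block over 4 groups 0 of the 26 signalling genes were called, and 0 had an unadjusted p under 0.05 in the authors' deposited table. The receptor gene Ifngr1 and the kinase gene Jak1 had log2 fold changes of 0.26 ± 0.18 and 0.06 ± 0.11 (SE) there.

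Downstream, 45 of 59 interferon-stimulated and antigen-presentation genes were positive, with a median log2 fold change of 0.16. Untreated and cytokine libraries were apart and higher with cytokines for 27 of the 59, beside 15.3% of all genes. They were apart and lower for 1, beside 14.6% of all genes. With the unweighted block 0 were called, and voom weights over 4 groups called 2 higher. The knockout-only fit called 10 higher and 0 lower, against 1.62% and 0.527% of all genes. Sp100, a nuclear-body protein, went from 61.4 and 77.4 to 138.4 and 151 normalized counts. Zbp1, a sensor of nucleic acids, went from 28.1 and 23.1 to 67.1 and 63.4. Tap1, the peptide transporter of antigen presentation, was at 337.1 and 324 and then at 434.7 and 414.8, and B2m, the shared light chain of MHC class I, at 1830.6 and 1928.1 and then at 2155 and 2386.3. Gbp5, an interferon-induced GTPase, was at 30.3 and 42.7 and then at 99.3 and 63.4, apart but not called. H2-K1, a class I heavy chain gene, had a log2 fold change of 0.12 ± 0.19 (SE) in the authors' deposited table.

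IL6-family genes, which NF-κB can induce and which signal through STAT3, had a median log2 fold change of 0.35 over 17 members, 13 of them positive. Il6 itself stood at 20.7 and 18.7 normalized counts untreated and at 54.3 and 57.1 with cytokines, and Lif at 29.6 and 72.1 and at 74.7 and 126.9. The knockout-only fit called 5 members higher (Junb, Bcl3, Il6, Socs3 and Lif), against 1.62% of all genes. It called Lifr, the LIF receptor, lower at 5605 and 5997.2 against 5130.1 and 5380.4, beside 0.527% of all genes. The block over 4 groups called 0. Junb, an AP-1 subunit, was at 600.3 and 665 and then at 955.2 and 914.7. It was 1 of 6 genes of 41 immediate-early genes that the knockout-only fit called higher, against 1.62% of all genes. Ctgf, a matricellular protein, was the only one of the 41 called lower, at 311.3 and 395.2 against 230.9 and 277.8. Fos and Egr1, which appear early after many stimuli, had log2 fold changes of 0.08 ± 0.34 and 0.25 ± 0.42 (SE) in the authors' deposited table.

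Of 12 cytokine-inducible adhesion genes, Vcam1, which binds integrins of leukocytes, stood at 146.4 and 240.4 untreated and at 275.1 and 395.8 with cytokines, and it was called higher in the knockout-only fit and with voom weights over 4 groups (adjusted p 0.043) but not with the unweighted block. Icam1, another integrin ligand, stood at 60.6 and 84.6 and at 138.4 and 123.1 and was not called. The endothelial selectin genes Selp and Sele had log2 fold changes of 0.16 ± 1.00 and 0.22 ± 1.03 (SE) in knockout islets in the authors' deposited table. In wild-type islets the authors' deposited table gave 2.57 ± 1.03 and 2.53 ± 1.12 (SE). Selp stood at 86.5 and 136.2 and then at 95.9 and 152.2 normalized counts in knockout islets, and at 5.7 and 63.8 and then at 33.3 and 388.8 in wild-type islets. The difference of the Selp responses, knockout minus wild type, was -2.41 with a 95% interval of -5.22 to 0.40 from the deposited values, and the limma interaction with the block gave it an adjusted p of 0.15.

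Metallothioneins are small proteins that bind zinc and are induced by zinc and by inflammation, and beta cells hold much zinc in insulin granules. Mt1 (chr8:94179082-94180327) rose from 8201.6 and 6769 to 13239 and 12409 normalized counts, a log2 fold change of 0.78 ± 0.16 (SE) in the authors' deposited table, with an FDR of 0.0038. Its neighbour Mt2 rose from 7018.7 and 5584.2 to 11266 and 11105, at 0.82 ± 0.22 (SE) in the authors' deposited table, with an FDR of 0.22 and an adjusted p of 0.024 with the block. Groups were apart for both genes. Slc30a1, the zinc exporter of the cell surface, stood at 1202.2 and 1107.4 untreated and at 1589.5 and 1679.7 with cytokines. It was called in the knockout-only fit (adjusted p 0.0033) and with voom weights over 4 groups (0.025), but not with the unweighted block over 4 groups (0.060). Over all 13 metallothionein and zinc-transporter genes 5 were positive, at a median log2 fold change of -0.06, so these 3 genes were not typical of their list. Of 28 redox genes the knockout-only fit called 1, Slc7a11, a cystine transporter, at 396.3 and 426.4 against 549.4 and 577.2 with cytokines.

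Further genes that rose with the block have other roles. Odc1, the rate-limiting enzyme of polyamine synthesis, went from 11052 to 16331 normalized counts in the male and from 5868.1 to 8706.8 in the female mouse. The mice started at different levels and the groups overlapped, and its log2 fold change of 0.57 ± 0.59 (SE) had an FDR of 1.0 in the authors' deposited table, whereas the adjusted p was 0.0072 with the block. Slc16a6, a transporter of the monocarboxylate family, went from 1200 and 983.7 to 1851 and 1636.6 (adjusted p 0.0095 with the block). Xpo1, the exportin that carries proteins out of the nucleus, went from 3294.5 and 3388.9 to 4760.8 and 4909.7 (adjusted p 0.016 with the block). Both genes had their treatments apart.

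All 7 measured linker histone genes, whose proteins bind DNA between nucleosomes, were higher with cytokines in both knockout mice, and 4 of them rose with the block. Hist1h1d (chr13:23553262-23560686) rose from 532.3 and 649.8 to 973.9 and 1146.9 normalized counts, at 0.85 ± 0.14 (SE) in the authors' deposited table, with an FDR of 3.5e-05, the smallest FDR there. Hist1h1e (chr13:23620629-23622558) rose from 1217 and 1132.3 to 1706.7 and 1755.8, at 0.56 ± 0.13 (SE) in the authors' deposited table, with an FDR of 0.033. Hist1h1c went from 4384.4 and 4150.9 to 6087.9 and 6026.1 and H1f0, the linker histone of resting cells, from 2760.7 and 2768.5 to 3566.1 and 3624.6, with adjusted p-values of 0.012 and 0.037 with the block. For all 4 genes the treatments were apart, and the other 3 measured linker histone genes, Hist1h1a, Hist1h1b and H1fx, were also apart and higher without being called. Over all genes, 15.3% were apart and higher with cytokines and 14.6% apart and lower. The median log2 fold change of the 7 was 0.55. H3f3b, which encodes the replacement histone H3.3, rose from 4221 and 4337.9 to 5560.6 and 5995.7 (adjusted p 0.024 with the block).

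Core histone genes were positive in 36 of 41 with a median of 0.17, and 0 were called with the block. The knockout-only fit called 1, Hist1h2be, whose gene model overlaps Hist1h1e, and related histone genes share sequence, so reads between them are uncertain. Proliferation genes, which dividing cells express along with core histone genes, were positive in 22 of 27 with a median of 0.25. Of these, the knockout-only fit called Mki67 (442.9 and 588.4 against 703.9 and 752.3) and Top2a (343.1 and 396.1 against 504.4 and 502.4) higher, beside 1.62% of all genes. The part of proliferation genes in the histone values was not tested.

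Short noncoding RNAs and mitochondrial ribosomal RNAs form a further group. Of 65 snoRNA genes, whose products guide the modification of ribosomal RNA, 58 were positive with a median log2 fold change of 0.60, against 0.00 in wild-type islets. The knockout-only fit called 21 of them higher and 0 lower, against 1.62% and 0.527% of all genes. The unweighted block over 4 groups called 0, and voom weights over 4 groups called 4 higher. Snord49a stood at 82.1 and 64.1 untreated and at 175.8 and 139.6 with cytokines, and Snora78 at 125.7 and 65.9 and at 247.9 and 145.9. All 10 scaRNA genes were positive with a median of 0.22. The mitochondrial ribosomal RNA genes mt-Rnr1 and mt-Rnr2 rose with the block (adjusted p 0.012 each), mt-Rnr1 from 2819.1 and 648.9 to 7573.8 and 1984.2 and mt-Rnr2 from 13356 and 5991.9 to 31138 and 16065 normalized counts. Both mice were higher for each gene, while the groups of mt-Rnr1 overlapped. Rnu12, the U12 RNA of the minor spliceosome, rose from 949.3 and 547.5 to 1783.9 and 1423.4 (adjusted p 0.040 with the block).

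The Y RNA genes Rny1 and Rny3, whose RNAs bind the Ro protein, had log2 fold changes of 1.14 ± 0.43 and 1.27 ± 0.73 (SE) in the authors' deposited table. The labels name total RNA as the molecule, and the sources used here do not say whether libraries were selected for poly(A). The part of library making or RNA quality in these RNAs was not tested.

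**Figure D2:**
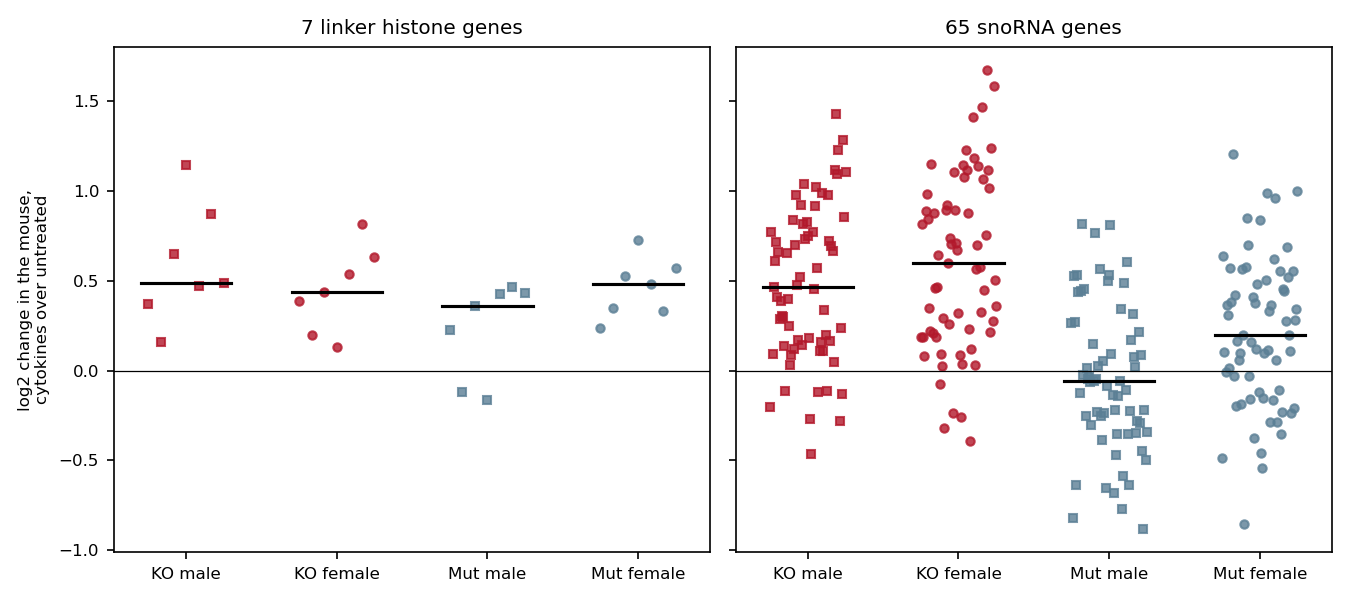
Log2 change of each gene in each mouse, cytokines over untreated (y axis), for 7 linker histone genes and 65 snoRNA genes; points are genes, black bars medians, red knockout and blue wild type (Mut). Linker histone medians lie at 0.49 and 0.44 in the knockout and 0.36 and 0.48 in the wild-type mice, whereas snoRNA medians lie at 0.47 and 0.60 in the knockout and at -0.06 and 0.20 in the wild-type mice.

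Ppy (chr11:102099930-102101319), the hormone of PP cells, was the only gene that fell in the authors' deposited table. It went from 29544 and 31760 to 14842 and 19795 normalized counts, a log2 fold change of -0.84 ± 0.16 (SE) in the authors' deposited table, where the FDR was 0.00048, and the adjusted p was 0.012 with the block. Both cytokine libraries lay below both untreated ones. Pyy, the related gene next to it, which encodes peptide YY, stood at 11824 and 17903 untreated and at 8956.9 and 14267 with cytokines, lower in both mice and called in the knockout-only fit (adjusted p 0.00035), with overlapping groups. Tspan8, a tetraspanin, was the third of 11 genes listed for delta, PP and epsilon cells that this fit called lower, against 0.527% of all genes. Sst, the delta-cell hormone, stood at 16600 and 25045 and at 18589 and 23960, and the epsilon-cell hormone gene Ghrl at 22.2 and 32.9 and at 25.5 and 50.7, neither called. In whole islets, fewer cells of a type and less RNA per cell cannot be told apart.

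The other main hormones showed log2 fold changes of 0.01 ± 0.10 for Ins1, 0.02 ± 0.09 for Ins2, 0.02 ± 0.16 for Iapp and 0.22 ± 0.57 (SE) for Gcg in the authors' deposited table, where they are given as group means only. Of 25 beta-cell identity genes 20 were negative, with a median of -0.03, and 0 were called by the authors, with the block or in the knockout-only fit. The glucose transporter gene Slc2a2 stood at 10078 and 12456 untreated and at 9888.4 and 11674 with cytokines, and Ucn3, a marker of mature beta cells, at 3185.1 and 4453.6 and at 3190 and 4318.5. Of 12 alpha-cell identity genes 0 were called.

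Abhd15, an α/β-hydrolase-domain gene, was the other gene that fell with the block, from 914.6 and 1151 to 627.5 and 837.3 normalized counts (adjusted p 0.035), and its FDR was 1.0 in the authors' deposited table. Txnip, a binding protein of thioredoxin that glucose normally induces in beta cells, stood at 5159.9 and 5366.1 untreated and at 3482.9 and 4302 with cytokines in raised glucose. Its log2 fold change was -0.44 ± 0.12 (SE) in the authors' deposited table, with an FDR of 0.24. Its adjusted p was 0.0052 in the knockout-only fit, 0.067 with the unweighted block over 4 groups and 0.029 with voom weights over 4 groups. Of 30 glucose-response genes the knockout-only fit called Txnip, Mlxipl, the gene of the glucose-sensing factor ChREBP, and Fasn lower, and Insig1 and Scd1 higher. Over all genes that fit called 0.527% lower and 1.62% higher. The unfolded protein response list had a median of 0.01 over 33 genes, 0 called with the block, and the knockout-only fit called Trib3 higher and Herpud1 lower, while the chaperone gene Hspa5 had a log2 fold change of 0.00 ± 0.17 (SE) in the authors' deposited table. Of 25 BCL2-family and apoptosis genes 19 were positive with a median of 0.08 and 0 were called by these fits. Of 23 NFAT and calcineurin genes 15 were positive with a median of 0.03 and 0 were called, among them Rcan1, a calcineurin inhibitor, at 453.2 and 400.6 against 422 and 450.4.

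**Figure D3:**
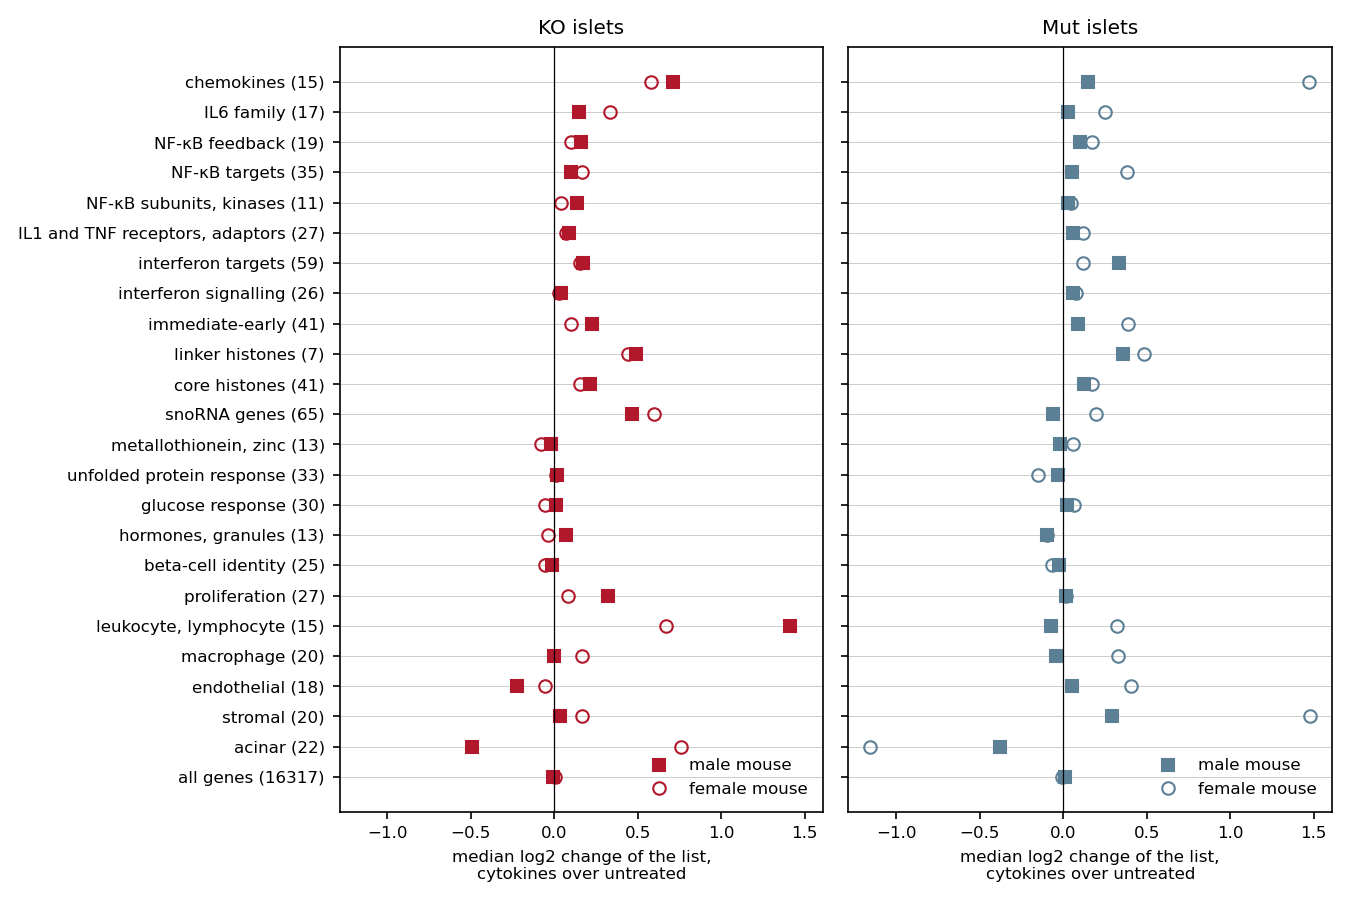
Median log2 change, cytokines over untreated (x axis), of each gene list in each mouse, with the number of genes that have library values in brackets; filled squares are male and open circles female mice, knockout at left and wild type (Mut) at right. Chemokine medians are 0.71 and 0.58 in the knockout mice, while acinar medians lie at -0.49 in the male and 0.76 in the female knockout mouse and the median of all genes lies within 0.01 of 0.

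Markers of other cells differed between the libraries as well. The leukocyte and lymphocyte list was positive in 15 of 15 with a median log2 fold change of 1.03 in knockout islets and 0.20 in wild-type islets. Without its 3 immunoglobulin genes, a choice made after their values were seen, the 12 remaining markers summed to 67.8 and 100.5 per 1000000 normalized counts (of genes with library values) untreated and to 159.6 and 146.9 with cytokines. In wild-type islets they summed to 49.6 and 48.6 untreated and to 44.3 and 63.7 with cytokines. Ptprc, the leukocyte surface phosphatase CD45, stood at 288.4 and 465.6 untreated and at 1088.5 and 742.2 with cytokines, and Ms4a1, the B-cell antigen CD20, at 20 and 33.8 and at 90 and 110.4. The log2 fold change of Ptprc was 1.33 ± 0.34 (SE; FDR 0.15) in knockout and 0.01 ± 0.35 (SE) in wild-type islets in the authors' deposited tables. The knockout-only fit called 6 of the 15 higher, against 1.62% of all genes. The unweighted block over 4 groups called 0, and voom weights over 4 groups called 2 higher.

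Ighm, the heavy chain of IgM, went the other way between the mice, from 3982.9 to 1186.2 in the male and from 17557 to 27927 in the female knockout mouse, and was at most 128 in the wild-type libraries. Macrophage markers summed to 277.8 and 325.8 per 1000000 untreated and to 328.8 and 364.5 with cytokines in knockout islets. Acinar markers, from enzyme-secreting cells outside the islet, summed to 2335 and 5372 untreated and to 1681 and 9108 with cytokines in knockout islets, lower in the male and higher in the female mouse. In wild-type islets they summed to 660.2 and 4492 untreated and to 481.9 and 2116 with cytokines. Endothelial markers were negative in 16 of 18 at a median of -0.13 in knockout islets and positive in 16 of 18 at 0.23 in wild-type islets. Stromal markers summed to 456.1 and 848 and then to 432.4 and 1042 per 1000000 in knockout islets. In wild-type islets they summed to 263.8 and 272.6 untreated and to 300.7 and 916.6 with cytokines, with 20 of 20 positive at a median of 1.08. The part of these cells in the chemokine, interferon, adhesion and histone values was not tested.

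**Figure D4:**
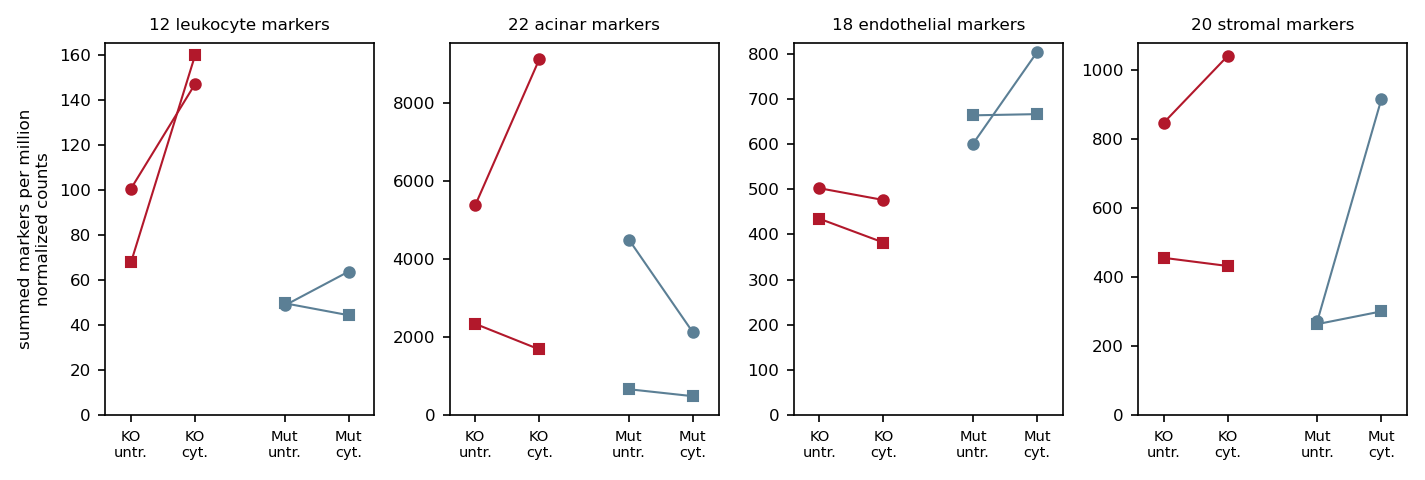
Summed normalized counts of marker genes per 1000000 normalized counts in each library (linear axes from 0) for leukocytes without immunoglobulin genes, acinar, endothelial and stromal cells; squares are male and circles female mice, lines join libraries of a mouse, red is knockout and blue wild type (Mut). Leukocyte markers go from 67.8 and 100.5 to 159.6 and 146.9 in the knockout mice, and acinar markers fan out to 1681 and 9108 with cytokines.

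Whether the knockout response differs from the wild-type response was asked gene by gene, as the difference of the 2 log2 fold changes. By the deposited values 0 genes passed (0% of 16333), with 36 at an unadjusted p under 0.05, and by the limma interaction with the mouse as a block 0 passed (0% of 16317), with 668 at an unadjusted p under 0.05 and a smallest adjusted p of 0.15. The median SE of a difference was 0.33 on the log2 scale from the deposited values. In wild-type islets the authors' deposited table called 2 genes (0.0122%) and the block 25 (0.153%) for cytokines, with 50.9% of genes positive. Of the 18 genes that rose with the block in knockout islets, 18 were positive in wild-type islets, 11 were called there with the block, and 17 had a smaller size there, H3f3b being the exception. The members were chosen by their knockout values, so a smaller size in the other genotype is a description.

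Of the 20 genes, 2 had an unadjusted p under 0.05 for the difference by the deposited values, Ppy and Hist1h1d, and 10 had one by the limma interaction with the mouse as a block. Among these 10 the blocked log2 difference was -0.65 ± 0.12 (SE) for Ppy, 1.10 ± 0.22 for mt-Rnr1, 0.89 ± 0.18 for mt-Rnr2, 0.44 ± 0.096 for Hist1h1d and 0.21 ± 0.081 for Mt1. None of the 20 passed after adjustment over all genes by either test, and the knockout values that chose the genes also enter this difference. Ppy stood at 21338 and 13514 untreated and at 17074 and 13090 with cytokines in wild-type islets, so the knockout untreated libraries were the highest 2 of the 8. The difference of responses was -0.65 with a 95% interval of -1.09 to -0.22 that is not adjusted for the number of genes. It was far from passing after adjustment by either test, with an adjusted p of 0.97 in the limma interaction with the block. Hist1h1d differed by 0.44 with an interval of 0.05 to 0.84, which did not pass after adjustment either. For Cxcl10 the difference was 0.58 with an interval of -0.80 to 1.97, for Nfkbia 0.32 with -0.19 to 0.84, and for Birc3 0.15 with -0.35 to 0.64. Relb and Tnfaip3 differed by 0.11 (-0.75 to 0.96) and 0.16 (-0.78 to 1.10). These intervals combine the deposited SEs of both responses, with no block for the mouse added, and include 0 for each of these 5 genes. With the mouse as a block the differences were 0.33 ± 0.14 (SE) for Nfkbia, with an unadjusted p of 0.049 in limma and an adjusted p of 1.0, 0.20 ± 0.19 for Tnfaip3 and 0.12 ± 0.16 for Relb.

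**Figure D5:**
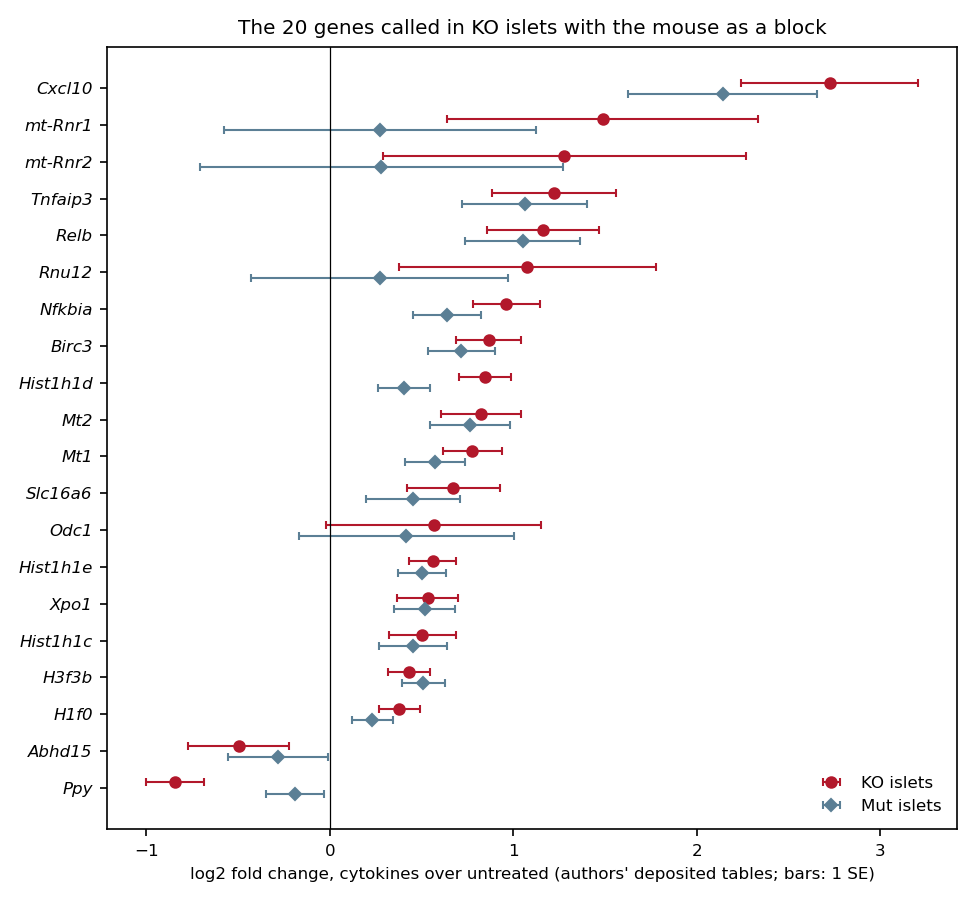
Log2 fold change, cytokines over untreated (x axis; bars 1 SE), from the authors' deposited tables for the 20 genes called with the mouse as a block, knockout as red circles and wild type (Mut) as blue diamonds. All 20 genes lie on the same side of 0 in both genotypes; Ppy is at -0.84 in knockout and -0.19 in wild-type islets, and Xpo1 at 0.53 and 0.52.

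The 264 genes called higher in the knockout-only fit had a median log2 fold change of 0.56 in knockout islets, and 222 of them were positive in wild-type islets, where the median was 0.23. The 86 called lower had medians of -0.22 and -0.19, and 80 of them were negative in wild-type islets. With voom weights and the block over 4 groups, added after the data were seen, 56 genes were called (0.343%), among them all 20 of the unweighted fit. An unadjusted p under 0.05 in the authors' deposited table was reached by 166 genes (1.02%) in knockout islets. The libraries were 2 mice in each genotype, so the p-values rest on the spread between few animals.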

How the data were processed

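RNA of mouse islets was sequenced in 8 libraries of 4 groups. Per the submitters' processing notes HISAT2, HTSeq, DESeq2 and GRCm38 were used, with no versions or roles. The authors deposited 4 comparison tables. The signal values, as deposited by the authors, are read counts normalized by size factors and averaged over a group or over all libraries. The deposited log2 fold changes and their score, the Wald test statistic, were fitted by the authors, and the deposited p-values and FDR go with that score. The smallest mean over all libraries was 23.2, so low genes had been removed. SE was taken as log2 fold change over score.

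Whole reads per library were recovered from the group means with the mean over all libraries, and 16 abundant genes, Ins2 and Gcg among them, could not be settled and have no library values. In male minus female values of 14228 genes with a mean of at least 50, untreated and cytokine libraries correlated at r = 0.777 in knockout and 0.782 in wild-type islets across genes, which are not independent. The pairing rests on the design (islets of each mouse received both treatments) and on sex. limma 3.58.1 in R 4.3.3 was fitted to log2(normalized count + 0.5) with the mouse as a block, Benjamini-Hochberg adjusted over all genes, and tested on simulated data. The main call is the deposited FDR under 0.05. The difference of responses is the difference of deposited fold changes over the root of the summed squared SE, two-sided normal.

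The members and lists were chosen with earlier results of these data known. Named genes are Nfatc2, all deposited calls, the 15 smallest p-values per direction with the block (mean 50 or more), the 4 smallest p-values of each list and a fixed set of hormones and pathway genes, and members are named where their list is described. Genes without these grounds that are named were chosen after their values were seen. Promoters are those of RefSeq, and gene positions and types those of GENCODE M21, in which 22 identifiers had no match. The sources used here give neither strandedness nor the handling of reads that fit several genes: overlapping, antisense and near-identical genes are therefore uncertain.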

Additional observations from a re-analysis of the deposited data

Results flagged for a closer look

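For 8 named genes both knockout mice moved one way with cytokines and both wild-type mice the other way. The share of such genes among all genes was not counted, so the 8 are a description and not a result about genotype. Some of the changes were small, such as log2 changes of -0.043 and -0.042 for Asns in the male and female wild-type mice. For Xist they were 0.066 in the female knockout and -0.028 in the female wild-type mouse. Knockout minus wild type, the log2 responses differed by 1.46 for Coro1a, a leukocyte actin regulator, by 1.14 for Ghrl, the ghrelin gene of epsilon cells, and by -0.48 for Tspan8, a tetraspanin. Coro1a went from 71 and 113 to 248.8 and 149.7 normalized counts in the male and female knockout mice and from 65.3 and 69.1 to 40.8 and 64.1 in wild-type islets. Tspan8 went from 804.4 and 870.6 to 684.4 and 658.4 in knockout and from 655.6 and 538.4 to 670.7 and 664.6 in wild-type islets. Asns and Chac1, which belong to the amino-acid stress response, differed by 0.15 and 0.30, Jam2, a junctional adhesion molecule, by -0.38, the mitochondrial tRNA gene mt-Tq by -0.45 and Xist, expressed from the inactive X chromosome, by 0.10. None of the 8 passed after adjustment over all genes by the deposited difference or by the limma interaction with the mouse as a block, where the unadjusted p was 0.0082 for Coro1a, 0.0040 for Tspan8, 0.0087 for Chac1 and 0.012 for Jam2 and for Ghrl.

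In the female knockout library with cytokines, 37 reads of Y-linked genes were counted, at 0.53% of the male level in that group. The female untreated knockout library held 0, and the female wild-type libraries held 3 and 2.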

How the results depend on the processing

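The count of 7 called genes became 20 in limma with the mouse as replicate block, with a pseudocount of 2 and with median-of-ratios scaling, 0 without the block, 350 in the knockout-only block fit, 56 with voom weights and 423 with voom weights in the knockout libraries alone. Leaving out a mouse gave 2 to 510 calls (2 without the male knockout mouse, 27 without the female knockout mouse, 378 without the male and 510 without the female wild-type mouse), where 1 residual degree of freedom remained and a lone mouse is assumed to vary like the others. The voom fits and the fits without a wild-type mouse were chosen after seeing the data. The 7 genes were all called with the block, 0 of them without the male and 5 without the female knockout mouse. A minimum mean of 50, or an FDR of 0.10, left 7. The difference of responses gave 0 calls in every setting run. Signs changed for the Y-linked genes Ddx3y (1.25 with the block, without it, in knockout libraries alone and with other scaling, 0.54 with a pseudocount of 2, -0.103 to 2.60 leaving out a mouse) and Uty (2.66 in the same 4 settings, 1.71 with a pseudocount of 2, -0.064 to 5.38 leaving out a mouse). Leaving out a mouse also gave log2 changes of both signs for Cela3b (-0.67 to 0.98), Itga2b (-0.063 to 0.38), Krt18 (-0.059 to 0.27), Nfatc2 (-0.24 to 0.094), Pf4 (-0.59 to 0.35), Reg1 (-0.20 to 0.95), Reg2 (-0.24 to 0.98) and Rgs4 (-0.027 to 0.23), with the sign opposite to the deposited value without the female knockout mouse, and for Sst (-0.064 to 0.16), opposite without the male one. The cause was not tested. edgeR on recovered reads was not run. The lowest mean among the genes called with the block was 156.4 normalized counts, and whether depth limited calls below it was not tested.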

Other observations

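Heat-shock genes were positive in 6 of 16 in knockout islets, with a median log2 fold change of -0.06, and in 3 of 16 with the same median of -0.06 in wild-type islets. Hspa8, the constitutive HSP70 chaperone, stood at 14094 and 13036 normalized counts untreated and at 11815 and 11292 with cytokines in the male and female knockout mice, and at 16123 and 17364 and then at 13733 and 14878 in the wild-type mice. Its treatments were apart in both genotypes, and the knockout-only fit called it lower (adjusted p 0.0038), whereas the fit with the mouse as a block over 4 groups did not (adjusted p 0.19).

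The 10 genes that the authors' deposited table marks as disallowed, a term used for genes that beta cells keep low, were positive in 8 of 10 in knockout islets with a median of 0.26. In wild-type islets 10 of 10 were positive with a median of 0.51. For knockout islets 0 were called with the block and 1 was called higher in the knockout-only fit. Of 78 microRNA genes 42 were positive with a median of 0.03, and 0 were called with the block or in the knockout-only fit. The 16 immunoglobulin variable segments in the table summed to 1946 and 7333.4 normalized counts untreated and to 153.68 and 11881 with cytokines in the male and female knockout mice, with 0, 0, 0 and 44.5 in the wild-type libraries. The segment Igkv14-126 held 38.3%, 43.6% and 41.3% of these counts in the 2 untreated libraries and the female cytokine library.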
